A study of Mus musculus with 5 samples.

Results

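The fibroblasts described here are the cells that the deposited cell annotation of metastasis-bearing mouse lungs names fibroblasts. They were chosen by that annotation alone and numbered 2059 of 22118 annotated cells in 5 single-cell RNA-sequencing libraries, which held 23852 cells in all before doublets and cells of unknown type were left out. All mice were female BALB/c, and all received intravenous 4T1 cells carrying the CD90.1 reporter, so no library came from a lung without injected cancer cells. 4T1 is a mouse mammary carcinoma line, and CD90.1 is a variant of the surface protein Thy1. Mice first received 3 weekly intravenous injections for 3 weeks of either control medium (CM) or tumor-secreted factors (TSF), the medium conditioned for 72 h by pieces of 4T1 tumors. Lungs were taken at day 11, called the seeding stage, from mice aged 10 weeks, or at day 16, called the colonization stage, from mice aged 11 weeks.

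Both CM groups and the day 16 TSF group were each sequenced as 1 library, while the day 11 TSF group was sequenced as libraries a and b. Each library came from the pooled lungs of 3 mice. Libraries a and b may come from the same pool and were counted as 1 sample. Every group therefore had 1 sample, a difference between groups cannot be checked over replicates, and no test between groups was made. Intervals below are 95% intervals that cover counting error only, and those for ratios of shares are wider than this level. Day also coincides with age, harvest and library, and these cannot be told apart. The question for fibroblasts was how many of them each lung suspension yielded. It was also asked whether they fell into the same clusters after TSF and CM and at both days.

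Fibroblasts are the main matrix-producing cells of the lung interstitium. They make the collagens of the alveolar wall and of the sheaths around airways and vessels, and they support the alveolar epithelium with growth factors and lipids. Myofibroblasts are contractile cells with smooth muscle genes, and pericytes wrap capillaries. These are the cell types closest to fibroblasts in this tissue, and the authors subclustered all 3 together, so they are the comparison used most below. The 3 are called mesenchymal cells here.

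The label could not be checked against marker genes in the fibroblasts themselves, since a gene-by-cell matrix was not analysed here. The 4 marker genes given for the type are Col1a1 and Col3a1, which encode chains of type I and type III fibrillar collagen, Dcn, which encodes the small matrix proteoglycan decorin, and Pdgfra, which encodes the platelet-derived growth factor receptor alpha of many lung fibroblasts. On GRCm38, Col1a1 lies on chromosome 11 (94936224 to 94953042), Col3a1 on chromosome 1 (45311538 to 45349706), Dcn on chromosome 10 (97479609 to 97518143) and Pdgfra on chromosome 5 (75152292 to 75198215), all on the plus strand. All 4 belonged to the 1000 highly variable genes from which the authors' cell map was built, and so did 26 of the 28 fibroblast, myofibroblast and pericyte markers listed in all. Fibroblasts were also well separated from the other labels in the first clustering. The 12 clusters with at least 20 fibroblasts held 2053 fibroblasts among 2063 cells, the other 10 cells being ones the authors left out, and only 6 fibroblasts lay elsewhere. This separation is a property of the annotation, which was built on those clusters.

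Fibroblasts made up close to the same share of annotated cells in every library. The share was 9.02% in the day 11 CM library (337 of 3738 cells, interval 8.12 to 9.98%). It was 9.15% in TSF library a (468 of 5113, 8.38 to 9.98%) and 8.81% in TSF library b (423 of 4804, 8.02 to 9.64%). At day 16 it was 10.6% in the CM library (378 of 3567, 9.61 to 11.7%) and 9.25% in the TSF library (453 of 4896, 8.46 to 10.1%). The day 16 CM library was the highest, and its interval overlapped those of the other 4, that of TSF library b only at the edge. The ratio of TSF to CM was 0.996 at day 11 (0.878 to 1.13) and 0.873 at day 16 (0.760 to 1.00). From day 11 to day 16 the ratio was 1.18 in CM (1.01 to 1.37) and 1.03 in TSF (0.918 to 1.15).

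At day 16 the direction of this comparison depended on which cells the fibroblasts were counted against. Granulocytes made up 29.1% of annotated cells in the day 16 TSF library (27.8 to 30.4%), 6.00% in the day 16 CM library and 4.47 to 4.93% in the 3 libraries of day 11. With granulocytes left out, fibroblasts were 11.3% of cells in the CM library (10.2 to 12.4%) and 13.1% in the TSF library (11.9 to 14.2%), a ratio of 1.16 (1.01 to 1.33). Among non-immune cells, cancer cells not counted, they were 22.0% in the CM library (20.1 to 24.1%) and 27.3% in the TSF library (25.2 to 29.5%), a ratio of 1.24 (1.08 to 1.42). Among mesenchymal cells they were 64.9% and 66.6%, a ratio of 1.03 (0.893 to 1.18). At day 11 the same ratios were 0.999, 0.967 and 0.916, and the first and second intervals held 1. Intervals for ratios of shares were computed as for rates of rare cells, which makes them too wide for large shares. For the mesenchymal ratio of day 11 the interval is therefore not read. The shares were 70.1% in the CM library (65.8 to 74.1%) and 64.0% (60.4 to 67.5%) and 64.3% (60.5 to 68.0%) in TSF libraries a and b. A share of a cell suspension cannot tell more fibroblasts from fewer cells of other types.

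**Figure D1:**
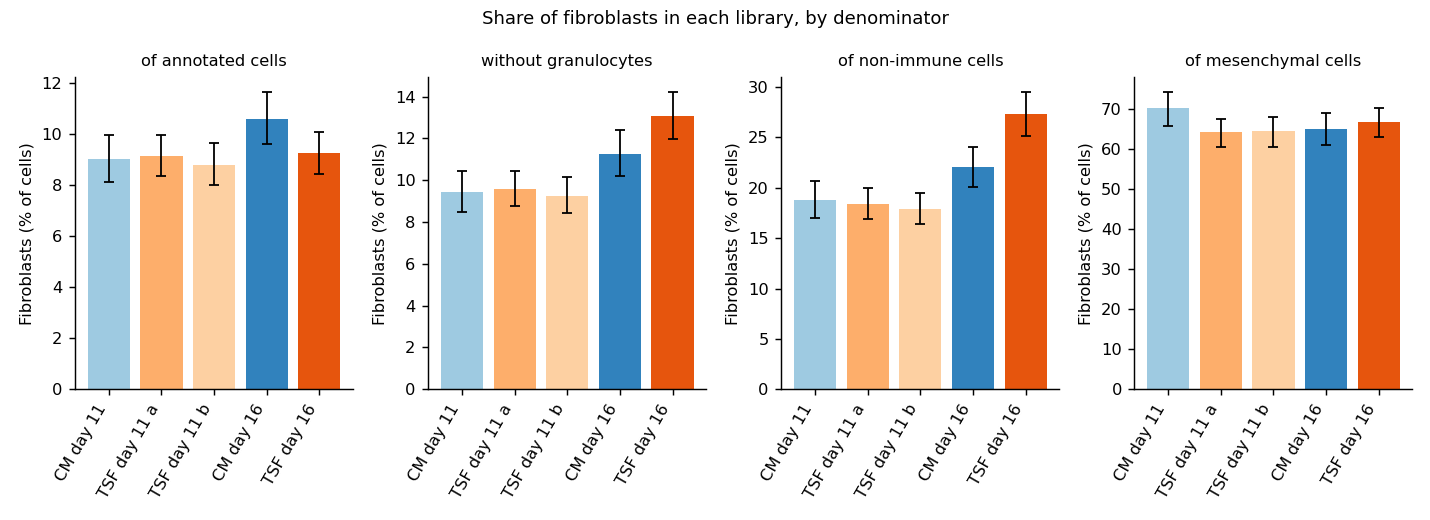
Fibroblasts as a percent of cells in each of the 5 libraries, with all annotated cells, cells without granulocytes, non-immune cells without cancer cells, and mesenchymal cells as the denominator. Bars are the shares and whiskers exact 95% binomial intervals. The day 16 TSF library is below the day 16 CM library in the first panel (9.25% against 10.6%) and above it in the next panels (13.1% against 11.3% and 27.3% against 22.0%).

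Counted directly against their neighbours, fibroblasts stood in a similar ratio to myofibroblasts in every library. There were 3.44 fibroblasts per myofibroblast in the day 11 CM library, 3.42 and 3.36 in TSF libraries a and b, 3.67 in the day 16 CM library and 3.60 in the day 16 TSF library. All 5 libraries lay within this narrow range. TSF over CM was 0.985 at day 11 (0.748 to 1.29) and 0.980 at day 16 (0.722 to 1.33), so differences of up to about these bounds would not have been detectable with 98 to 137 myofibroblasts per library.

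The ratio to endothelial cells, which line the vessels, set the day 16 TSF library apart. There were 0.394 fibroblasts per endothelial cell in the day 11 CM library, 0.371 and 0.349 in TSF libraries a and b, 0.435 in the day 16 CM library and 0.695 in the day 16 TSF library. The last value stood above the other 4 libraries. TSF over CM was 0.914 at day 11 (0.787 to 1.06) and 1.60 at day 16 (1.34 to 1.90). The day 16 TSF library held 652 endothelial cells and 453 fibroblasts, and the CM library 868 and 378. The same TSF and CM libraries held 126 and 103 myofibroblasts and 101 and 101 pericytes. A higher count per endothelial cell in the TSF library was thus not particular to fibroblasts.

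The ratio to type 2 alveolar cells (labelled ACT2), the surfactant-producing cells of the alveolus, followed the day in both treatments. It was 1.09 in the day 11 CM library and 1.18 and 1.23 in TSF libraries a and b, but 2.78 and 2.34 in the day 16 CM and TSF libraries. The days did not overlap. Day 16 over day 11 was 2.56 in CM (1.98 to 3.31) and 1.94 in TSF (1.59 to 2.37), whereas TSF over CM was 1.11 at day 11 (0.919 to 1.33) and 0.840 at day 16 (0.643 to 1.10). For type 1 alveolar cells (ACT1), the thin cells of gas exchange, the ratio was lowest in the day 11 CM library, at 3.66, and highest in the day 16 TSF library, at 4.82. Its TSF over CM values were 1.29 at day 11 (0.962 to 1.71) and 1.06 at day 16 (0.754 to 1.48).

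The ratio to pericytes set the day 11 CM library apart. That library had 7.33 fibroblasts per pericyte and held only 46 pericytes. The other 4 libraries had 3.71, 3.88, 3.74 and 4.49 fibroblasts per pericyte (TSF a, TSF b, CM of day 16 and TSF of day 16) with 101 to 126 pericytes each. TSF over CM was 0.518 at day 11 (0.360 to 0.732) and 1.20 at day 16 (0.870 to 1.65). The fibroblast share of annotated cells in the day 11 CM library was not raised (9.02%).

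**Figure D2:**
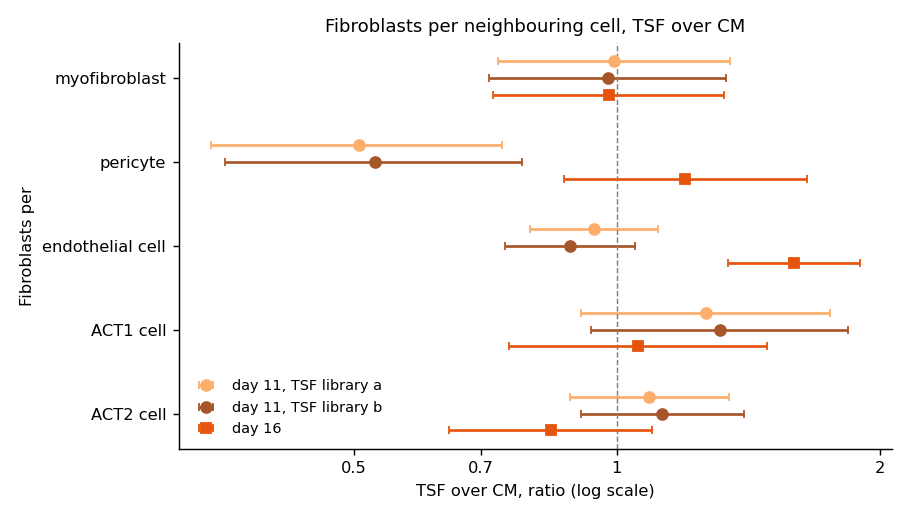
Number of fibroblasts per cell of 5 neighbouring types, TSF divided by CM on a log axis, for TSF libraries a and b against the day 11 CM library (circles) and for day 16 (squares). Whiskers are exact 95% intervals for counting error and the dashed line marks a ratio of 1. The day 16 value for endothelial cells (1.60) lies to the right of the line and both day 11 values for pericytes to the left, while all 3 values for myofibroblasts lie close to the line.

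Fibroblasts carried more UMIs, the unique molecular counts of a cell, than the typical cell of their library. Their median was 3534 UMIs in the day 11 CM library, 3243 and 3412 in TSF libraries a and b, 4062 in the day 16 CM library and 3405 in the day 16 TSF library. Each was 1.48 to 1.59 times the median of all annotated cells in the same library. The day 16 CM library was the highest, and its fibroblasts also spread widely, with quartiles at 2019 and 6397 UMIs. Cells with at least 6000 UMIs were 27.2% of its fibroblasts (22.8 to 32.0%), against 17.2% in the day 16 TSF library (13.9 to 21.0%) and 8.12 to 11.9% at day 11. Fibroblasts supplied 13.0% of the UMIs of annotated cells in the day 16 CM library, 9.58% in the day 16 TSF library and 10.1 to 11.1% at day 11.

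The UMIs of other cell types moved with the library too. The ratio of the median UMIs of day 16 fibroblasts, TSF over CM, was 0.838, but 0.963 after each was divided by its library median. Of 12 cell types with at least 50 cells in every library, 9 had lower median UMIs in the day 16 TSF than in the day 16 CM library, with ratios from 0.748 (myofibroblasts) to 1.30 (neutrophils) over all 12. The median UMIs of the CM library rose from day 11 to day 16 in 11 of these 12 types.

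Genes detected per fibroblast were compared within windows of UMIs, and the order of the libraries differed between windows. Between 4000 and 5000 UMIs the median was 1845 genes in the day 11 CM library, 1842 and 1838 in TSF libraries a and b, 1972 in the day 16 CM library and 1902 in the day 16 TSF library. Between 5000 and 6000 UMIs it was 2064, 2116 and 2031 at day 11, in the same order, and 2206 and 2166 at day 16. Both day 16 libraries were above all day 11 libraries in these windows. Between 2000 and 3000 UMIs the days overlapped, with 1254 to 1286 genes at day 11 and 1354 and 1262 in the day 16 CM and TSF libraries. They also overlapped between 3000 and 4000 UMIs, with 1547 to 1652 genes at day 11 and 1671 and 1604 at day 16. Between 1000 and 2000 UMIs the medians were 838 to 908 genes at day 11 and 753 and 837 at day 16. The cells in these 3 windows were not of equal depth. Between 1000 and 2000 UMIs their median UMIs were 1456 to 1589 at day 11 and 1344 and 1446 at day 16. Between 2000 and 3000 they were 2518 to 2593 at day 11 and 2652 and 2466.5 at day 16. Between 3000 and 4000 they were 3378.5 to 3613 at day 11, highest in the CM library, and 3575 and 3451 at day 16. The windows held 35 to 128 fibroblasts per library.

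The day 16 TSF library had the fibroblasts with the highest share of mitochondrial UMIs, a measure often raised in stressed or damaged cells. The median was 2.20% in the day 11 CM library, 2.27% and 2.25% in TSF libraries a and b, 2.44% in the day 16 CM library and 2.81% in the day 16 TSF library. Fibroblasts above 5% were 11.5% of the day 16 TSF library (8.69 to 14.8%) and 5.77 to 7.42% of the other 4. The median mitochondrial share was higher in the day 16 TSF than in the day 16 CM library in all 12 cell types compared, and the difference was larger than that of fibroblasts, 0.370 percentage points, in 5 of them. These 5 were immune types, while M2 macrophages (0.325) and neutrophils (0.190) lay below fibroblasts. So did the other non-immune types compared, namely myofibroblasts (0.141), endothelial cells (0.180), ACT2 cells (0.049) and ACT1 cells (0.028). Without cells above 5%, the fibroblast share in TSF over CM at day 16 was 0.815 (0.705 to 0.943). Among cells with at least 2000 UMIs it was 0.993 (0.845 to 1.17).

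**Figure D3:**
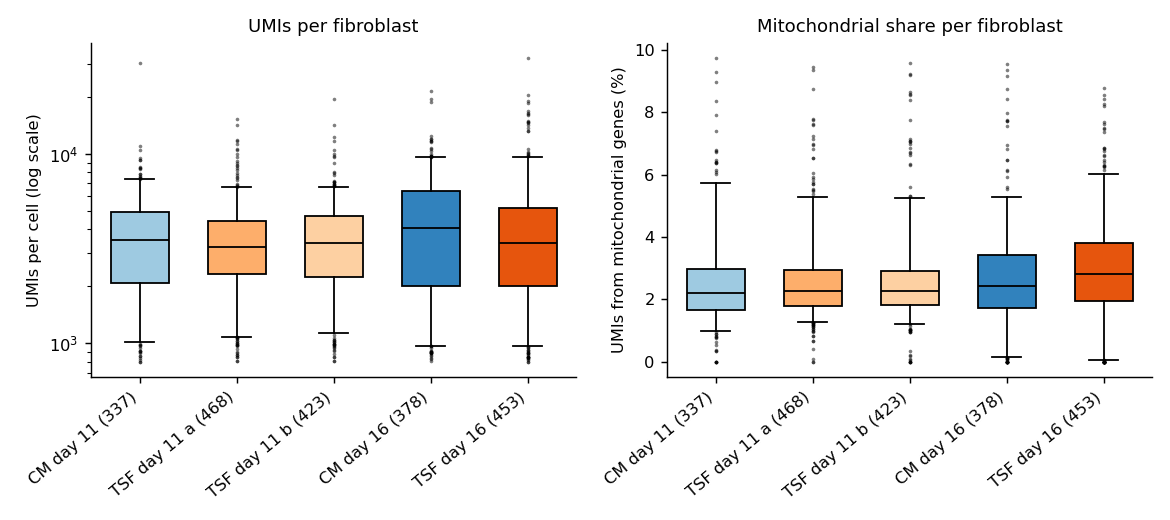
UMIs per fibroblast on a log axis (left) and the percent of UMIs from mitochondrial genes (right) in the 5 libraries, with the number of fibroblasts in brackets. Boxes span the quartiles, the line is the median, whiskers span the cells from the 5 to the 95 percentile and dots are cells beyond. The day 16 CM library has the highest median UMIs (4062) and the day 16 TSF library the highest median mitochondrial share (2.81%).

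The kinds of fibroblast were then compared through the authors' clusters. Clusters are named by number, since no gene values of fibroblasts were analysed here and the clusters cannot be given a biological name. Each is a group of cells with similar expression, made from these same cells, so what follows is a description and not a test. In the first clustering 12 clusters held at least 20 fibroblasts each, between 111 and 243, and none held more than 16.1% of any library's fibroblasts.

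The days differed in which fibroblast clusters were filled. The 2 libraries of day 16 lay above all 3 libraries of day 11 in 5 of the 12 clusters and below them in 4. Over all cell types, 59.8% of 122 clusters were separated by day in this way, so such separation was frequent in the whole series. By treatment, 1 fibroblast cluster was separated in each direction, and over all cell types 11.5% of the 122 were. Cluster 20 was higher in all TSF libraries, at 10.7%, 9.93% and 12.4% of the fibroblasts in TSF libraries a, b and day 16 against 8.90% and 8.47% in the day 11 and day 16 CM libraries. Cluster 48 was lower in all TSF libraries, at 8.76%, 7.33% and 6.40% against 9.79% and 8.99%. For clusters 20 and 48 the interval of every TSF library overlapped those of both CM libraries.

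Cluster 23 showed the widest difference between days among those that were lower at day 16. It held 10.7% of fibroblasts in the day 11 CM library and 14.3% and 10.9% in TSF libraries a and b, but 3.17% and 3.97% in the day 16 CM and TSF libraries. Cluster 79 went from 9.20%, 8.76% and 8.75% in the same day 11 libraries to 3.17% and 4.86%. Cluster 4 showed the widest difference in the other direction, with 8.61%, 9.40% and 9.22% at day 11 and 16.1% and 15.5% in the day 16 CM and TSF libraries. These 3 clusters were named after their values were seen. For cluster 23 the intervals of both day 16 libraries lay below those of all 3 day 11 libraries. For clusters 79 and 4 the interval of the day 16 CM library also lay outside those of all 3 day 11 libraries. That of the day 16 TSF library overlapped all 3 for cluster 79 and those of TSF libraries a and b for cluster 4.

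Summed, the 5 clusters with higher shares at day 16 (4, 39, 62, 73 and 99) held 35.9%, 32.1% and 37.4% of the day 11 fibroblasts in CM, TSF a and TSF b, and 57.7% and 51.7% of those of day 16 in CM and TSF. The 4 clusters with lower shares (23, 51, 79 and 98) held 35.9%, 40.0% and 35.2% at day 11 and 14.8% and 18.8% at day 16. The direction of these sums is fixed by how the clusters were sorted. The remaining 3 clusters (20, 48 and 69) held 26.7 to 29.4% in every library. Cluster 39 consisted of shallow cells, with a median of 1183 UMIs and 3.16% mitochondrial UMIs against medians of at least 2519 UMIs in the other 11 clusters, and the part of RNA quality in its share was not tested.

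**Figure D4:**
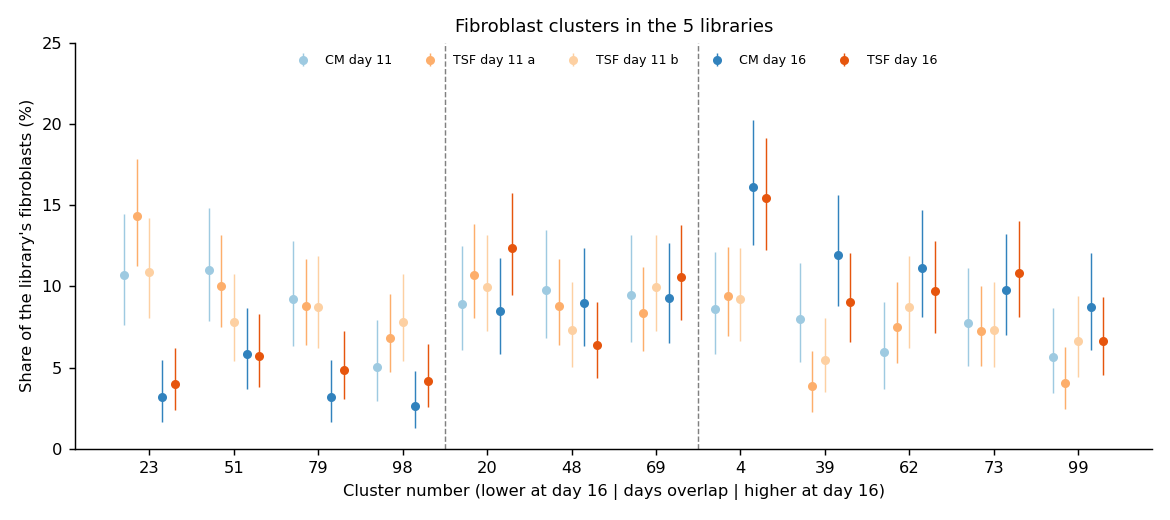
Share of each library's fibroblasts in the 12 clusters of the first clustering with at least 20 fibroblasts, as points with exact 95% binomial intervals. Dashed lines divide the 4 clusters lower at day 16, the 3 in which the days overlap and the 5 higher at day 16. Blue and orange points of the same day sit close together in most clusters, for example 16.1% and 15.5% in cluster 4 at day 16.

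Over all clusters of the first clustering, fibroblasts of the same day overlapped between treatments nearly as much as libraries a and b did. Overlap is the sum, over clusters, of the smaller of the 2 libraries' shares, so that a higher value means more alike. It was 91.7% for TSF libraries a and b, 89.7 to 90.9% for the 3 pairs of the same day and different treatment, 76.4 to 82.4% for the 3 pairs of the same treatment and different day, and 72.6 to 79.5% for the 3 pairs that differed in both. Between libraries, the chi-square value of the fibroblast cluster counts on 11 degrees of freedom was 9.34 for a and b and 10.1, 11.8 and 12.4 for the pairs of the same day, against 40.8 to 89.4 for pairs of different days. These values were computed to look for repeated libraries and count cells as independent. They compare libraries and not conditions, and they test no difference between days.

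Pairs of the same day also overlapped more than pairs of different days in the finer subclusters and in cells of similar depth. Fibroblasts fell into 69 subclusters, of which 48 held at least 20 cells. Overlap was 80.0% for libraries a and b, 69.9 to 73.9% for the same day, 55.7 to 57.6% for the same treatment and 52.5 to 58.5% where both differed. At this level same-day pairs were less alike than libraries a and b. Of the 48 subclusters, 11 were higher and 16 lower in both libraries of day 16 than in all of day 11, and over all cell types 59.1% of 423 subclusters were separated by day. By treatment, 3 were higher and 6 lower in TSF, and 12.5% of the 423 were separated. Restricted to fibroblasts with 2000 to 5000 UMIs, the cluster overlap was 89.7% for a and b, 81.2 to 89.8% for the same day and 69.5 to 77.7% for the same treatment. In the subclusters of these fibroblasts it was 75.9%, 62.5 to 64.8% and 43.9 to 53.3%. Restricted to fibroblasts with at most 5% mitochondrial UMIs, the cluster overlap was 91.9%, 87.1 to 90.6% and 76.1 to 83.4%.

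Other lung cells also shifted with the day, less clearly so for myofibroblasts and pericytes in the first clustering. No test sets fibroblasts apart from them. Overlap also depends on the number of cells, and the types differed in it. Libraries held 337 to 468 fibroblasts, 98 to 137 myofibroblasts and 46 to 126 pericytes. For endothelial cells the overlap was 90.7% between a and b, 79.8 to 86.4% for the same day and 61.3 to 75.0% for the same treatment. For type 2 alveolar cells it was 90.6%, 84.5 to 89.3% and 69.4 to 75.2%. For myofibroblasts it was 89.4% between a and b, and the ranges for the same day (77.0 to 91.0%) and for the same treatment (73.2 to 82.3%) ran into each other. Pericytes did likewise, at 90.0% between a and b, 67.9 to 88.1% and 61.8 to 82.1%. Pairs that differed in both day and treatment reached 89.9% in myofibroblasts (TSF library b and CM of day 16). In pericytes they reached 94.0% (CM of day 11 and TSF of day 16), and both values were above those of a and b. In the finer subclusters the ranges for the same day and the same treatment were apart in both types. Same-day pairs overlapped by 73.3 to 80.7% in myofibroblasts and 73.5 to 85.1% in pericytes. Pairs of the same treatment and different day overlapped by 62.7 to 62.9% and 47.0 to 54.8%, and pairs that differed in both by 65.8 to 72.2% and 39.8 to 65.3%.

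**Figure D5:**
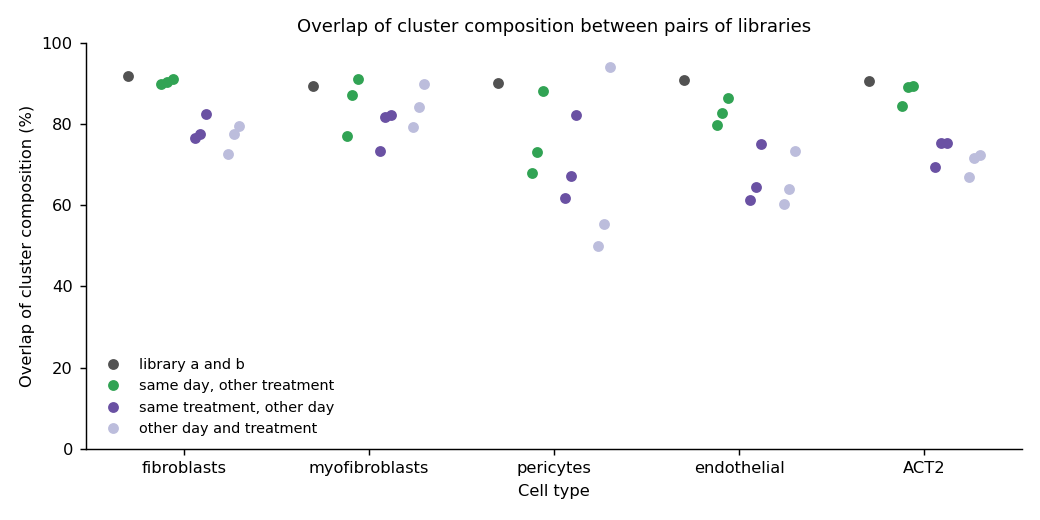
Overlap of cluster composition for each pair of libraries, in percent, for 5 cell types. Each point is 1 pair, and colours mark libraries a and b, pairs of the same day and other treatment, pairs of the same treatment and other day, and pairs that differ in both. For fibroblasts all 3 same-day pairs (89.7 to 90.9%) lie above all 6 pairs of different days (72.6 to 82.4%).

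The fibroblast marker genes could be read in the cancer cells of day 16, the cells for which a deposited gene table gives values. These values do not give the level in fibroblasts. The cancer cells were deep, with medians of 26615 UMIs in the TSF and 27679 UMIs in the CM library, against 3405 and 4062 in fibroblasts of the same libraries. Col1a1 had a UMI in 6 of 139 TSF cancer cells and in 0 of 29 CM cancer cells, and Col3a1 in 2 and 0. Dcn had a UMI in 16 TSF cells and 2 CM cells (11.5% and 6.90%). A count of 0 of 29 allows a share of cells with a UMI of up to 10.3%, so for Col1a1 and Col3a1 a difference between the libraries was not detectable with this number of cells. For Dcn the intervals of the TSF (6.72 to 18.0%) and CM libraries (0.846 to 22.8%) overlapped. Pdgfra differed from the other 3 genes. It had a UMI in 45.3% of TSF cells (63 cells, interval 36.9 to 54.0%) and 44.8% of CM cells (13 cells, 26.4 to 64.3%). Its mean was 0.426 and 0.407 UMIs per 10000 UMIs of a cell. In these libraries, Pdgfra was thus read in cells annotated as cancer cells far more often than the collagen markers.

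Of the wider fibroblast list, Lum (lumican), Col14a1 and Col13a1 were at 0 in the cancer cells of both libraries. Col1a2, the partner chain of Col1a1, had a UMI in 6 TSF cells and no CM cell. Dpt (dermatopontin), Serpinf1, Tcf21, a transcription factor of lipid-bearing alveolar fibroblasts, and Inmt were seen in 2 to 9 TSF cells and no CM cell. Their TSF shares and that of Col1a2, at most 6.47%, were below what 0 of 29 CM cells allows. Mfap4, a microfibril protein, was seen in 12 TSF cells and 1 CM cell (8.63% and 3.45%). Pi16, a marker of adventitial fibroblasts, was seen in 10 and 3 (7.19% and 10.3%). Gsn, the actin-severing protein gelsolin, and Npnt, the basement membrane protein nephronectin, were common. Gsn had a UMI in 117 TSF and 21 CM cells (84.2% and 72.4%), and Npnt in 109 and 23 (78.4% and 79.3%). Of 6 myofibroblast and smooth muscle genes, Acta2 and Tagln were seen in 1 and 2 TSF cells and the other 4 in none, and all 6 pericyte genes were at 0 in both libraries, which allows shares of cells with a UMI, not of cells expressing the gene, of up to 2.16% in the TSF and 10.3% in the CM library.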

How the data were processed

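Single-cell RNA was measured with 10x 5' libraries. The authors mapped reads with Cell Ranger to mm10 (GRCm38.p6) with the CD90.1 sequence added, removed ambient RNA with a customised SoupX, clustered and subclustered cells and annotated them by hand. Seurat 4.1.0 is among the tools in the submitters' processing notes. The deposited cell table gives UMI counts and gene counts per cell, the percent of UMIs from mitochondrial genes, map coordinates (a score without unit), and cluster, class and type labels. The lowest values in it were 800 UMIs and 202 genes per cell, and the highest mitochondrial share was 9.99%. Its 2 further libraries, outside the described samples, were not used. Doublets and cells of unknown type were not counted in shares. For cancer cells of day 16, the deposited gene table gives the number of cells with a UMI and the authors' mean signal (UMIs per 10000 UMIs of a cell). Its fold changes, p-values and q-values, and the authors' gene set scores, compare TSF with CM in cancer cells and were not used.

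Fibroblasts were the cells of that type label. Shares have exact Clopper-Pearson intervals and ratios per neighbouring cell exact odds-ratio intervals, at the 95% level and for counting error only. Ratios of shares have conditional intervals that are exact for a ratio of rates. For shares they are wider than the 95% level, the more so the larger the share. For TSF at day 11 the mean of a and b was used, with an interval from their summed cells. A count of 0 was read as allowing up to 3 counts. No thinning of cells to a fixed number of UMIs was done, as that needs a matrix. Chi-square values were computed between libraries to detect repeated ones. Fibroblasts of any pair of libraries shared 0 or 1 cell barcodes, and all annotated cells 14 to 38. Annotated libraries had median depths of 2109 to 2645 UMIs and total depths, over all cells, of 13240822 to 21451787 UMIs. Genes named were all members of 4 marker lists, matched by symbol, with coordinates from GENCODE on GRCm38. The alternatives were other denominators (doublets and unknown cells counted among them), a minimum of 2000 UMIs, at most 5% mitochondrial UMIs, division by library medians and leaving out library a or b, with others added after seeing the data. Clusters under 20 cells were not compared. The members, lists and comparisons were chosen with earlier results of these data known. Python 3.11.15, pandas 2.3.3, numpy 2.4.6, scipy 1.17.1 and matplotlib 3.10.9 were used.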

Additional observations from a re-analysis of the deposited data

Results flagged for a closer look

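For 3 neighbouring types the ratio of TSF to CM lay on opposite sides of 1 at the 2 days, which flagged them. The difference between days was not tested, since each group had 1 sample. The log2 ratio of fibroblasts per pericyte was higher at day 16 than at day 11 by 1.21, and rested on the 46 pericytes of the CM library of day 11. For fibroblasts per endothelial cell it was higher at day 16 by 0.81, with the TSF library of day 16 above the other 4. For fibroblasts per type 2 alveolar cell the change was -0.40, and the interval of the ratio held 1 at both days.

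Among the cells that the authors subclustered with fibroblasts, myofibroblasts and pericytes, 60 of 3192 were classed as doublets or as unknown. Doublet labels held 19 and 11 cells, and unknown labels 18 and 12. The label of 18 cells lay wholly in the CM library of day 16, with a median of 1130 UMIs. The other libraries held no cell of this label, which allows shares of up to 0.404 to 0.616%. In the CM library of day 16, 3.80% of the subclustered cells (2.42 to 5.65%) were doublets or unknown, against 1.02 to 1.94% in the other 4. With all such cells, doublets among them, counted as fibroblasts, the fibroblast share in TSF over CM at day 16 was 0.840 (0.733 to 0.963).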

How the results depend on the processing

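Of 50 alternatives over 8 results, 39 left the value within its 95% interval (for median UMIs, within the SD of libraries a and b on the log2 scale), 10 moved it further and 1 turned a ratio whose interval lay off 1. This split depends on the intervals for ratios of shares, which are too wide. The interval for TSF over CM at day 16 ended at 1.00, so its alternatives on the other side of 1 counted as moved and not as turned. In all, 14 of the 50 put a ratio on the other side of 1. These were 3 for TSF over CM at day 16, 5 for TSF over CM at day 11, 1 for CM over days, 3 for TSF over days, and those with at least 2000 UMIs for fibroblasts per myofibroblast (1.21 at day 16 and 1.14 at day 11). The share in TSF over CM at day 16 (0.873) was 1.16 without granulocytes, 1.24 among non-immune cells and 1.03 among mesenchymal cells. With at least 2000 UMIs it was 0.993. The share from day 11 to day 16 in CM (1.18) was 0.927 among mesenchymal cells and 1.00 with at least 2000 UMIs. In TSF (1.03) it was 1.38 without granulocytes, 1.50 among non-immune cells and 0.871 with at least 2000 UMIs. With at least 2000 UMIs the share in TSF over CM at day 11 (0.996) was 1.14. Division by library medians moved the ratio of median UMIs from 0.838 to 0.963 at day 16 and from 0.941 to 0.980 at day 11. Leaving out library a or b gave 0.977 to 1.02 for the share at day 11 and 1.01 to 1.05 for TSF over days. With 2 alternatives chosen after seeing the data, the share in TSF over CM at day 16 was 0.898 and 0.840. The first left out cluster 39, and the other counted the doublets and unknown cells of the subclustering as fibroblasts. No paired analysis was possible because each group had 1 sample. Depth limits rare clusters and the 29 CM cancer cells, and single libraries limit every comparison.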
